A study of Mus musculus with 32 samples.

Results

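The cholesterol and fatty acid synthesis genes are 36 named genes out of 45706 in the count table, chosen by name for their roles in making, sensing, moving and exporting sterols and in making fatty acids. They comprise 7 genes of the mevalonate steps, 9 of the sterol steps, 5 regulators and 3 of sterol transport and storage. Another 3 are the sterol exporters Abca1 and Abcg1 with Mylip, and 9 belong to fatty acid and glycerolipid synthesis. RNA sequencing measured them in 32 BV-2 libraries; BV-2 is a mouse cell line made by immortalising microglia, which are the brain's own macrophages. The 8 groups of 4 libraries crossed 4 mimics with 2 conditions. A mimic is a synthetic duplex that raises the amount of 1 mature microRNA; cells received miR-146a-5p, miR-7a-5p, miR-29a-3p or scramble, a control with no intended target. The conditions were vehicle (VEH) and LPS, the lipopolysaccharide of bacterial outer membranes and a strong activator of macrophages, at 10 ng/ml for 24 h. Groups are named by condition and mimic, as in LPS_miR-29a. All groups share the wild-type cell line and the transfection itself, and no untransfected group was analysed here. The labels place LPS before transfection and the methods of the study describe transfection before LPS induction, so the order cannot be told from the sources. By the methods of the study, each replicate of the BV-2 work stands for a separate experiment; whether 1 number marks the same experiment in all 8 groups is not given in the sources used here. In bulk RNA a lower level can mean fewer expressing cells or less RNA per cell, and these cannot be told apart.

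Cells make cholesterol from acetyl-CoA through mevalonate, farnesyl pyrophosphate, squalene and lanosterol. When sterols in the endoplasmic reticulum run low, the transcription factor SREBP-2 (gene Srebf2) is released from its INSIG anchor, is cut and switches on most genes of this route, while SREBP-1 (gene Srebf1) drives fatty acid synthesis. When oxysterols build up, the liver X receptors LXR-alpha and LXR-beta (Nr1h3 and Nr1h2) switch on the cholesterol exporters Abca1 and Abcg1, Mylip, which marks the low density lipoprotein receptor for breakdown, and Srebf1. In macrophages this balance sets how much cholesterol is stored as esters and how much is handed to lipoproteins.

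The 3 transfected microRNAs have different seeds, the bases 2 to 8 that pair with target transcripts. Their mature sequences are printed from RefSeq (GRCm38.p6) because matches to these seeds are counted among the members further on; the seed is in capitals.
miR-7a-5p: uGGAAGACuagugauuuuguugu
miR-29a-3p: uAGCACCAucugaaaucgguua
miR-146a-5p: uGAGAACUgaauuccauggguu

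Library totals ran from 1142915 to 20636012 restored estimated counts, so 3 counts corresponded to 0.145 to 2.62 CPM (counts scaled to a library of 1000000). Small structural RNA genes (snRNA, snoRNA and the like) held 33.4% to 37.3% of the counts in replicates 2 to 4 of VEH_miR-7a, against 2.59% to 19.5% in the other 29 libraries; these shares rest on the restoration of lost decimal marks. Of 10 microglia and macrophage markers 9 had a median above 1 CPM, Csf1r and Cd68 among them, while all 6 astrocyte and glioma markers had a median of 0 CPM, although the labels call the cell type glioblastoma. The microglial markers summed to 2647 to 4295 CPM under vehicle and 1883 to 3446 CPM under LPS. The treatment left its known trace: in scramble cells Saa3, an acute-phase protein, rose from 2.06 ± 0.933 to 795 ± 176 CPM (SD, n = 4; limma adjusted p = 7.61e-08), and all 6 genes of an LPS response list were called.

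Of the 36 members 34 were expressed well enough for a test in each pairwise comparison. Fads2, a fatty acid desaturase, had 1 count in each of 2 libraries and none in the other 30. Scd1, a stearoyl-CoA desaturase, was under 2 CPM in 30 of 32 libraries and at most 24.6 CPM, and 5 of its values could not be restored with certainty; it passed the filter in 1 comparison only, miR-7a against scramble under LPS. There Scd1 was at 0.721, 0.315, 0.872 and 0.536 CPM in LPS_scramble and at 0.811, 0.823, 0.45 and 0.884 CPM in LPS_miR-7a, which overlapped (log2 fold change 0.35, SE 0.41, limma adjusted p = 0.721). Its neighbour Scd2, a related desaturase, was the most abundant member. Reads shared between the pair could change the low Scd1 values while hardly touching Scd2, which was not tested.

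Per kilobase of exon, Scd2 stood at a mean level of 209 CPM over the 32 libraries, followed by the cholesterol esterification enzyme Soat1 at 94.8, the fatty acid desaturase Fads1 at 53.5 and the SREBP anchor Insig1 at 47.0 CPM per kb. The citrate-splitting enzyme Acly stood at 35.2, the sterol-binding Tmem97 at 31.8, Srebf2 at 30.7, the exporter Abca1 at 29.8 and Abcg1 at 28.7 CPM per kb. Enzymes of the mevalonate and sterol steps lay between 1.95 for the keto-reductase Hsd17b7 and 24.2 CPM per kb for the decarboxylase Mvd. Exon length is the union over all annotated transcripts, so these levels depend on the annotation. Differences between the 8 groups were modest: the ratio of the highest to the lowest group mean was 3.66 for Lpin1, 2.40 for Stard4 and 2.37 for Mylip, and it was 1.19 to 1.29 for Sqle, Insig1, Fdft1, Lss, Nsdhl and Acaca. The map of group means shows Lpin1 and Fasn split by condition, while most sterol genes show no such split.

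**Figure D1:**
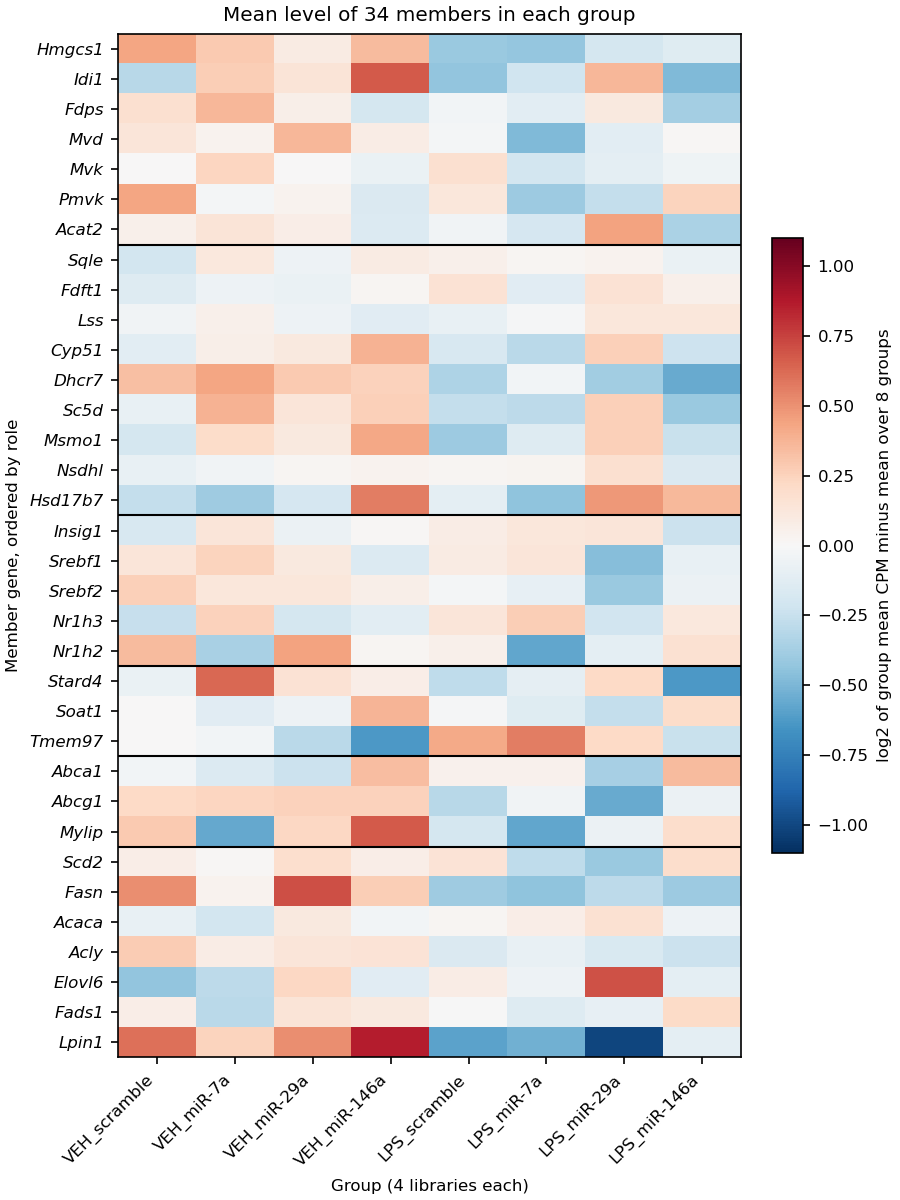
Mean level of 34 member genes (rows, ordered by role, with lines between roles) in the 8 groups (columns, 4 libraries each). Colour is the log2 of the group mean CPM minus the gene's mean over the 8 groups; Lpin1 runs from 34.4 CPM in LPS_miR-29a to 126 CPM in VEH_miR-146a.

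The comparison of LPS with vehicle asked how activation changes these genes, once within each mimic; the 4 comparisons share no libraries. In scramble cells 6 of 34 members were called, all lower under LPS: Lpin1, Abcg1, Mylip, Fasn, Hmgcs1 and Dhcr7. That is 17.6% of the members, beside 17.9% of 12358 genes called in either direction and 8.33% called lower. Without 1 of the 8 libraries the count ran from 1 to 7, at 1 without LPS_scramble replicate 4 and at 3 without LPS_scramble replicate 1 or 3. In miR-7a cells 2 of 34 members were called, both lower (6.91% of 11936 genes called, 4.07% lower). In miR-29a cells 8 of 34 were called, 7 lower and 1 higher (26.6% of 12271 genes called, 13.8% lower and 12.8% higher). In miR-146a cells 3 of 34 were called, all lower (4.48% of 12144 genes called, 1.61% lower). The median log2 fold change of the members was -0.09, -0.29, -0.08 and -0.13 with scramble, miR-7a, miR-29a and miR-146a, against 0.01, 0.02, -0.01 and -0.02 over all genes tested.

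Across these 4 comparisons 10 of 34 members were lower under LPS in all and 2 were higher in all, which is 29.4% and 5.88% of the members, beside 23.2% and 23.4% of the 11230 genes tested in all 4. The 10 were Hmgcs1, Mvd, Dhcr7, Srebf2, Soat1, Abcg1, Mylip, Fasn, Acly and Lpin1, and the 2 were Tmem97 and Elovl6. Lpin1 was the 1 member called in all 4, or 2.94%, as were 85 of the 11230 genes lower (0.757%) and 143 higher (1.27%). The ranges of vehicle and LPS libraries did not overlap for 7, 2, 7 and 3 members with scramble, miR-7a, miR-29a and miR-146a, beside 22.6%, 15%, 28.1% and 11.2% of all genes tested. With the replicate number as a block, which the check described under the processing supports for the miR-29a pair, 16 members were called in miR-29a cells, 13 lower and 3 higher, in place of 8 (41.6% of all genes called, 22.2% lower and 19.4% higher). Of the 4 LPS comparisons the check supports the block for scramble and miR-29a, and blocked values of single genes are given below for these alone. With miR-7a and miR-146a the block also added calls, and the blocked counts for these are given only at the end of the report.

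Of the 7 tested fatty acid and glycerolipid genes 2 were called in scramble cells, both lower under LPS, with a median log2 fold change of -0.13 over the 7. Over all genes tested in this comparison 8.33% were called lower. Lpin1, the phosphatidate phosphatase that makes diacylglycerol for triglyceride and phospholipid synthesis, was at 113, 109, 88.5 and 108 CPM in replicates 1 to 4 of VEH_scramble and at 48.8, 54.9, 37.7 and 42.7 CPM in LPS_scramble. The groups did not overlap, and the log2 fold change was -1.25 (SE 0.15, limma adjusted p = 0.000318). In miR-29a cells it was at 111, 95.5, 94.8 and 94.1 CPM under vehicle and at 33.8, 42.6, 30.5 and 30.8 CPM under LPS, a log2 fold change of -1.58 (SE 0.14, limma adjusted p = 2.39e-05). With miR-146a the values were 122, 137, 123 and 124 against 62.9, 78.8, 66.4 and 48.9 CPM, a log2 fold change of -0.99 (SE 0.14, limma adjusted p = 0.00137). With miR-7a they were 91.6, 76.1, 62.5 and 98.7 against 39.2, 54.4, 45.2 and 53.5 CPM, a log2 fold change of -0.83 (SE 0.18, limma adjusted p = 0.0137). The highest LPS library lay below the lowest vehicle library within every mimic. The call held without any 1 library except for miR-7a without VEH_miR-7a replicate 1, the library of its group with a low restored share of structural RNA, where the log2 fold change was -0.73 (limma adjusted p = 0.0609).

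Fasn, the fatty acid synthase, was at 375, 612, 286 and 333 CPM in VEH_scramble and at 208, 281, 194 and 174 CPM in LPS_scramble. The highest LPS library lay just below the lowest vehicle library, and the log2 fold change was -0.91 (SE 0.24, limma adjusted p = 0.0224). In miR-29a cells Fasn fell from 433, 642, 432 and 332 to 232, 329, 185 and 174 CPM, a log2 fold change of -1.07 (SE 0.23, limma adjusted p = 0.00538). In miR-146a cells it fell from 373, 366, 283 and 338 to 196, 286, 174 and 195 CPM, a log2 fold change of -0.71 (SE 0.16, limma adjusted p = 0.0238), with a slight overlap. With miR-7a the vehicle libraries were spread from 179 to 440 CPM and overlapped the LPS libraries at 182 to 233 CPM (log2 fold change -0.55, SE 0.22, limma adjusted p = 0.172). The scramble call was lost without LPS_scramble replicate 1, 3 or 4 (limma adjusted p = 0.0556, 0.0547 and 0.0758), and the miR-146a call was lost in 6 of 8 such fits, with limma adjusted p up to 0.0783.

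Scd2, a stearoyl-CoA desaturase and the most abundant member, was called in miR-29a cells alone among the 4, where it fell from 1238, 1264, 1249 and 1408 CPM to 954, 802, 1023 and 626 CPM with no overlap (log2 fold change -0.68, SE 0.16, limma adjusted p = 0.00886). In scramble cells it was at 949, 1374, 1152 and 1279 CPM under vehicle and 1136, 1230, 1337 and 1334 CPM under LPS. The test of the difference between these 2 LPS effects gave -0.69 on the log2 scale (SE 0.22) with a limma adjusted p of 0.55, so the difference did not pass. Acly, which makes cytosolic acetyl-CoA, had log2 fold changes of -0.48, -0.27, -0.37 and -0.41 with scramble, miR-7a, miR-29a and miR-146a and passed in none; with the replicate block, where supported, it passed in both scramble and miR-29a cells (limma adjusted p = 0.0119 and 0.00902). The acetyl-CoA carboxylase Acaca ranged from -0.06 to 0.18 and Fads1 from -0.30 to 0.07; Fads1 was called lower with the replicate block in miR-29a cells (limma adjusted p = 0.027). The elongase Elovl6, which lengthens palmitate, had log2 fold changes of 0.58, 0.12, 0.49 and 0.10, above 0 in each. Without the block Elovl6 was called in none, and with it Elovl6 was called higher in miR-29a cells (log2 fold change 0.46, limma adjusted p = 0.0245).

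**Figure D2:**
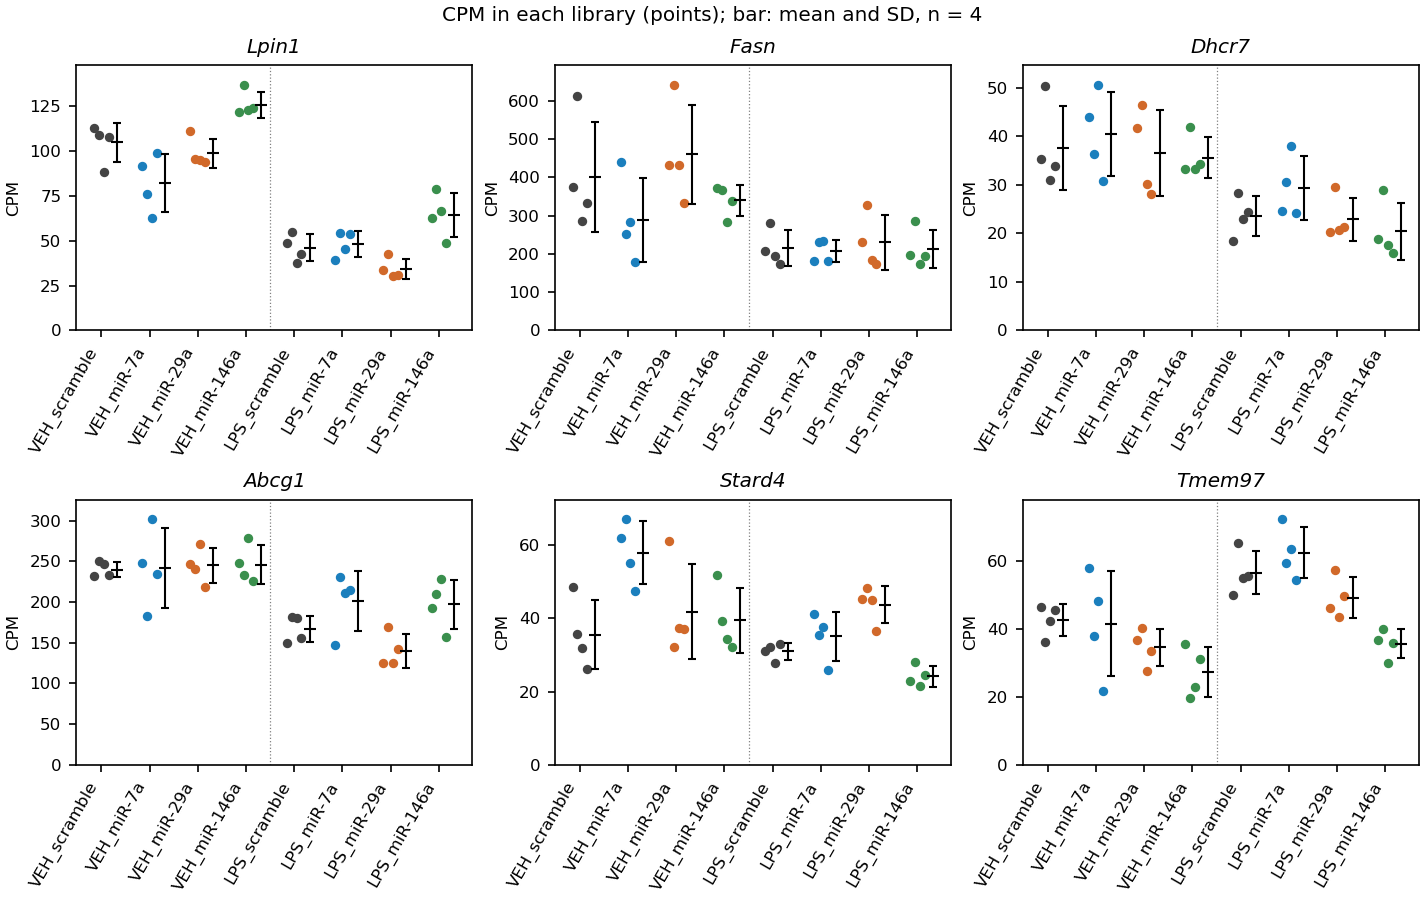
CPM (vertical axis, linear, from 0) of 6 members in each library of the 8 groups; points are libraries, the bar gives mean and SD (n = 4), and the dotted line parts vehicle from LPS. Lpin1 under LPS stays at or below 78.8 CPM and under vehicle at or above 62.5 CPM, with no overlap within any mimic; within each condition the mean of Tmem97 is lowest with miR-146a.

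Most genes of the sterol route did not pass the test for LPS. Hmgcs1, the synthase that makes HMG-CoA, was at 156, 102, 95.6 and 81.1 CPM in VEH_scramble and at 87.3, 69.4, 50.4 and 37.2 CPM in LPS_scramble. Replicate 1 was the highest in each group, so the groups overlapped although the mean fell from 109 ± 32.7 to 61.1 ± 21.9 CPM (SD, n = 4; log2 fold change -0.94, SE 0.26, limma adjusted p = 0.0299; 0.00121 with the replicate block). With the other mimics it was not called, at -0.81, -0.28 and -0.37. Dhcr7, the reductase of the last step to cholesterol, was at 35.3, 50.4, 30.9 and 33.9 CPM in VEH_scramble and at 18.5, 28.4, 23 and 24.3 CPM in LPS_scramble, without overlap. Its log2 fold change was -0.65 (SE 0.18, limma adjusted p = 0.0332) with scramble, -0.65 (SE 0.20, limma adjusted p = 0.0317) with miR-29a, -0.84 (SE 0.20, limma adjusted p = 0.0288) with miR-146a and -0.60 (SE 0.22, limma adjusted p = 0.13) with miR-7a. In miR-29a cells its values were 41.8, 46.4, 30.2 and 28.2 against 20.2, 29.6, 20.6 and 21.4 CPM, which overlapped, and in miR-146a cells 33.2, 42, 33.2 and 34.2 against 18.9, 29, 17.5 and 16 CPM, which did not. These calls stand near the threshold: leaving out 1 of 8 libraries lost the call on Hmgcs1 in 5 fits, with log2 fold changes of -1.10 to -0.71 over the 8 fits and limma adjusted p up to 0.102. The call on Dhcr7 was lost in 5, 5 and 7 fits with scramble, miR-29a and miR-146a (limma adjusted p up to 0.0995), with log2 fold changes of -0.73 to -0.50, -0.80 to -0.53 and -1.02 to -0.74.

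Of the remaining mevalonate genes none was called in any LPS comparison without the replicate block; in the scramble and miR-29a comparisons the block added 1 call, Mvd, lower in miR-29a cells (log2 fold change -0.50, limma adjusted p = 0.0343). Idi1 in miR-146a cells was at 59.9, 45.9, 32.1 and 23.9 CPM under vehicle and at 24.1, 18.9, 16 and 13.3 CPM under LPS, where the highest LPS library just passed the lowest vehicle library (log2 fold change -0.95, limma adjusted p = 0.0579). In scramble cells the thiolase Acat2, the kinases Mvk and Pmvk, Mvd, the isomerase Idi1 and the farnesyl pyrophosphate synthase Fdps had log2 fold changes from -0.29 to 0.14. In miR-7a cells the 7 mevalonate genes were between -0.81 and -0.54 on the log2 scale, beside a median of 0.02 over all genes tested. None of them was called (limma adjusted p = 0.0985 to 0.292). The vehicle side holds replicates 2 to 4 of VEH_miR-7a, with 33.4% to 37.3% structural RNA, and the part of this in the difference was not tested. Of the remaining sterol genes (the squalene synthase Fdft1, the squalene epoxidase Sqle, the lanosterol synthase Lss, the demethylase Cyp51, the oxidase Msmo1, Nsdhl, Hsd17b7 and the desaturase Sc5d) none was called without the block either. With it, in scramble and miR-29a cells, the added call was Hsd17b7, higher in miR-29a cells, where the LPS library was the higher in 4 of 4 same-numbered pairs (log2 fold change 0.62, limma adjusted p = 0.0176). Sqle was at 144, 83.2, 89.3 and 108 CPM in VEH_scramble and at 102, 168, 97.6 and 138 CPM in LPS_scramble (log2 fold change 0.20, limma adjusted p = 0.524). Its 2 groups overlapped over most of their range. Beside the members, among 14 tested sterol pathway genes outside the list, the mitochondrial thiolase Acat1 fell in miR-7a and miR-29a cells (-0.79 and -0.82 on the log2 scale, limma adjusted p = 0.0168 and 0.00177), and Sec14l2, a squalene transfer protein, fell in miR-29a cells (log2 fold change -0.64, limma adjusted p = 0.0281).

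Among the regulators, Srebf2 was at 219, 350, 229 and 251 CPM in VEH_scramble and at 214, 243, 207 and 201 CPM in LPS_scramble (log2 fold change -0.30, limma adjusted p = 0.245). In miR-29a cells it fell from 212, 293, 232 and 218 to 148, 213, 151 and 149 CPM (log2 fold change -0.59, SE 0.16, limma adjusted p = 0.0164), where only replicate 2 of the LPS libraries reached the vehicle range. This call was lost without LPS_miR-29a replicate 1 or 3 (limma adjusted p = 0.0543 and 0.0528). Nr1h2 in miR-29a cells fell from 57.3, 73.3, 62.9 and 58.9 to 34, 52.7, 35.2 and 50.6 CPM without overlap (log2 fold change -0.61, SE 0.18, limma adjusted p = 0.0232; up to 0.0794 when 1 library was left out, with 4 of 8 fits losing the call). Srebf1 was at 104, 167, 100 and 93.7 CPM in VEH_scramble and 101, 134, 107 and 111 CPM in LPS_scramble, with a log2 fold change of -0.04. In miR-29a cells Srebf1 was at 106, 158, 108 and 84.4 against 70.2, 116, 59.5 and 60.7 CPM, not called (log2 fold change -0.62, limma adjusted p = 0.0672) but called with the replicate block (limma adjusted p = 0.000938). Insig1, itself an SREBP target, was at 163, 90.5, 158 and 99.5 CPM in VEH_scramble and 168, 172, 136 and 138 CPM in LPS_scramble and was called in none of the 4. Nr1h3 was low, with group means of 10.5 to 15.1 CPM, and was not called.

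The sterol exporters were split, and Mylip is given beside them. Abcg1, which hands cholesterol to high density lipoprotein, was at 232, 250, 247 and 233 CPM in VEH_scramble and at 150, 181, 180 and 156 CPM in LPS_scramble. The libraries of each group lay close together and the groups were far apart (log2 fold change -0.58, SE 0.13, limma adjusted p = 0.0116; 0.0506 without LPS_scramble replicate 4). In miR-29a cells Abcg1 fell from 247, 241, 272 and 219 to 125, 169, 125 and 142 CPM (log2 fold change -0.87, SE 0.13, limma adjusted p = 0.000793). With miR-7a and miR-146a the log2 fold changes were -0.34 and -0.35, not called. Abca1, which loads apolipoprotein A-I, was at 298, 305, 277 and 311 CPM in VEH_scramble and at 299, 285, 339 and 333 CPM in LPS_scramble, with log2 fold changes from -0.20 to 0.13 over the 4 mimics. In scramble cells the Abca1 groups overlapped in part, with LPS replicates 3 and 4 above every vehicle library (log2 fold change 0.03, SE 0.13). Mylip fell from 65, 56.9, 70.3 and 66.3 to 43.8, 45.8, 48 and 48.4 CPM in scramble cells without overlap (log2 fold change -0.51, SE 0.13, limma adjusted p = 0.0198; 4 of 8 fits without 1 library lost the call, limma adjusted p up to 0.0596). In miR-29a cells Mylip was called lower only with the block (log2 fold change -0.37, limma adjusted p = 0.0573; 0.0203 with the block).

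Of the transport and storage genes, Tmem97, a sterol and NPC1 binding protein also known as the sigma-2 receptor, was the member called higher. It was at 36.7, 40.4, 27.7 and 33.5 CPM in VEH_miR-29a and at 46.2, 57.5, 43.6 and 49.7 CPM in LPS_miR-29a, without overlap (log2 fold change 0.49, SE 0.16, limma adjusted p = 0.0392; 6 of 8 fits without 1 library lost the call, limma adjusted p up to 0.143). In the other mimics the log2 fold changes were 0.37, 0.38 and 0.47, of similar size and not called. Stard4, which carries cholesterol between membranes, fell in miR-7a cells from 62.1, 67.2, 55.3 and 47.4 to 41.3, 35.6, 37.7 and 25.8 CPM (log2 fold change -0.85, SE 0.20, limma adjusted p = 0.0213). These groups did not overlap, and 4 of 8 fits without 1 library lost the call (limma adjusted p up to 0.0743). In miR-146a cells Stard4 was at 52, 39.3, 34.5 and 32.2 against 22.8, 28, 21.4 and 24.5 CPM, also without overlap, and did not pass (log2 fold change -0.64, limma adjusted p = 0.0545), while with scramble and miR-29a the log2 fold changes were -0.20 and 0.06. Soat1 ranged from -0.26 to -0.06 and was called in none without the block; in miR-29a cells, at -0.26, it was called with the block (limma adjusted p = 0.0463). When replicates 2 to 4 of VEH_miR-7a, rich in structural RNA, were left out, neither Stard4 nor Lpin1 was called in miR-7a cells (-0.88 and -0.96 on the log2 scale, limma adjusted p = 0.301 and 0.178), with 1 vehicle library left and assumed to vary like the LPS libraries.

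**Figure D3:**
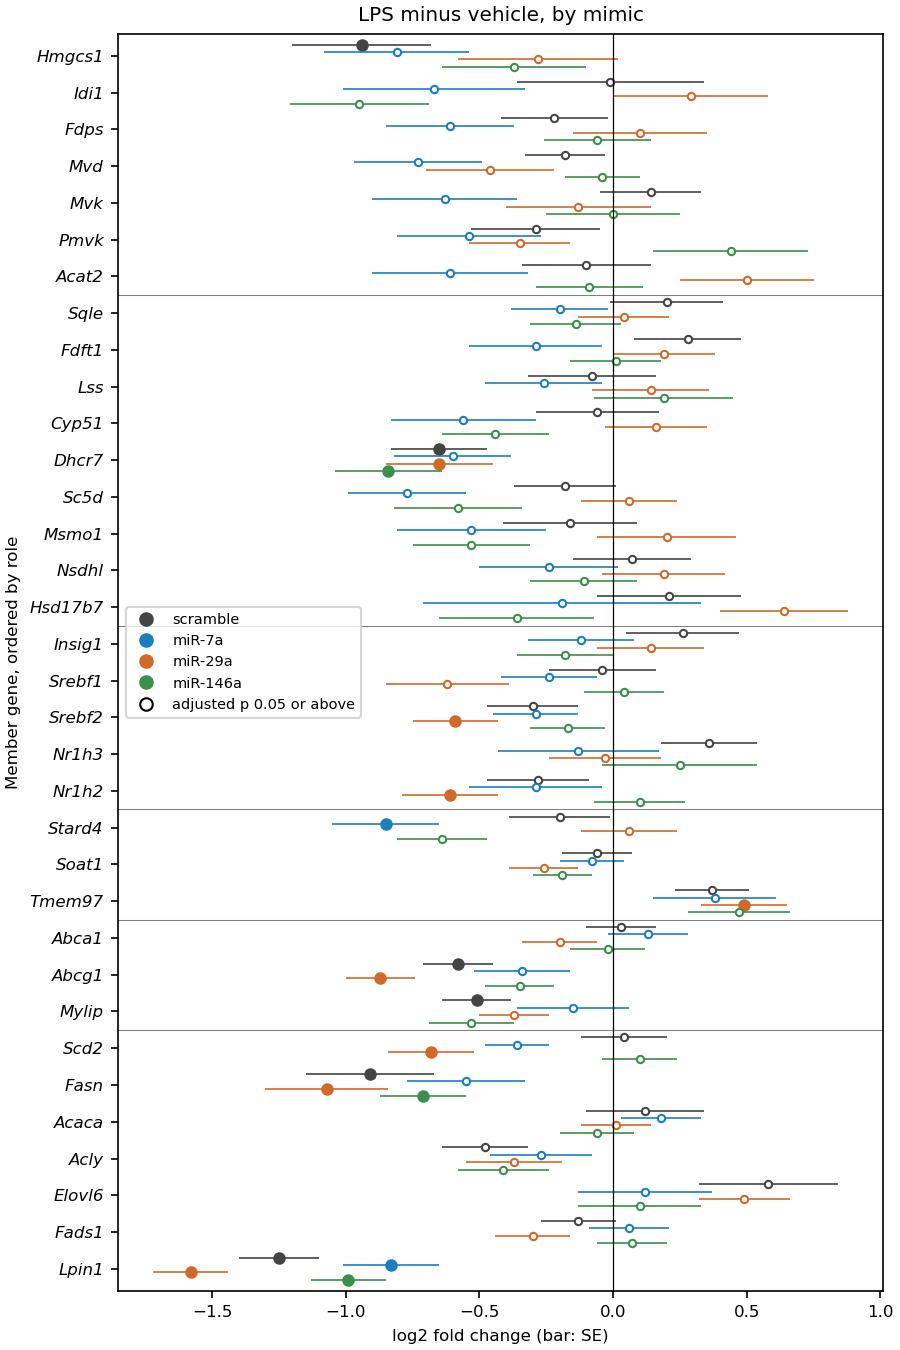
log2 fold change of LPS over vehicle (horizontal axis, bars are SE) for 34 members within each of the 4 mimics; filled points have a limma adjusted p under 0.05 over all genes tested. Lpin1 is filled in all 4, between -1.58 and -0.83, and most sterol genes are open.

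Other lipid genes give the surroundings. Of 20 tested fatty acid and glycerolipid genes outside the members, 7 were higher and 2 lower under LPS in scramble cells and 6 higher and 1 lower in miR-29a cells and 1 higher in miR-7a cells; limma called none in miR-146a cells. Over all genes tested 9.57% were called higher and 8.33% lower with scramble, 12.8% and 13.8% with miR-29a, and 2.84% and 4.07% with miR-7a. In scramble cells Acsl5, which activates long-chain fatty acids, rose from 102 ± 8.14 to 205 ± 19.7 CPM (SD, n = 4; limma adjusted p = 0.000718), and Dgat2, which makes triglyceride from diacylglycerol, rose from 23.5 ± 1.85 to 46.2 ± 6.63 CPM (SD, n = 4; limma adjusted p = 0.00277). Me1, a source of NADPH, rose from 14.6 ± 4.35 to 26.2 ± 2.90 CPM (SD, n = 4; limma adjusted p = 0.013). So Lpin1 and Fasn fell under LPS in the same scramble libraries in which these 3 rose. Of 10 tested fatty acid oxidation genes 1, 1 and 3 were lower with scramble, miR-7a and miR-29a, among them Acadvl and Acadm, acyl-CoA dehydrogenases; 8.33%, 4.07% and 13.8% of all genes were. Of 10 lipid storage and lysosomal sterol release genes 2 were called in miR-7a cells and 4 in miR-29a cells (6.91% and 26.6% of all genes); in miR-29a cells Npc1, the lysosomal cholesterol exporter, fell (log2 fold change -0.49, limma adjusted p = 0.0189) and Lipa, the lysosomal acid lipase, rose (log2 fold change 0.53, limma adjusted p = 0.0211).

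The comparisons of each mimic with scramble asked what each microRNA changed, and the 3 comparisons of 1 condition use the same 4 scramble libraries as control. Under LPS 4 of 34 members were called with miR-29a, all higher: Elovl6, Msmo1, Stard4 and Idi1 (5.25% of 13364 genes called, 2.13% higher). With miR-146a 1 of 34 was called, Tmem97, which was lower (2.42% of 12666 genes called, 1.61% lower). With miR-7a limma called 0 of 35 members (2.89% of 13039 genes called), with 6 members at an unadjusted p under 0.05, 0 called by edgeR and 3 by DESeq2. The median log2 fold change of the members was -0.02 with miR-29a, 0.00 with miR-146a and -0.01 with miR-7a, against -0.01, -0.01 and 0.01 over all genes tested. With the replicate number as a block, which the pairing check supports for miR-7a and miR-29a under LPS, 5 members were called with miR-7a, all lower (16.1% of all genes called, 8.21% lower), and 13 with miR-29a, 7 higher and 6 lower (19.7% of all genes called, 8.73% higher and 10.9% lower).

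The 4 members higher with miR-29a under LPS were an early and a late enzyme of the sterol route, a sterol carrier and a fatty acid elongase. Idi1 was at 22.5, 18.2, 16.4 and 18.2 CPM in LPS_scramble and at 45.7, 26.4, 35.6 and 23.2 CPM in LPS_miR-29a (log2 fold change 0.78, SE 0.20, limma adjusted p = 0.0495). Msmo1 was at 71.3, 66.2, 60.4 and 62.5 against 133, 93.2, 105 and 80.8 CPM (log2 fold change 0.64, SE 0.15, limma adjusted p = 0.0365). In both genes every miR-29a library lay above every scramble library, and replicate 1 was the highest of its group. Stard4 was at 31.0, 32.3, 27.8 and 33.1 against 45.2, 48.3, 45.1 and 36.5 CPM (log2 fold change 0.49, SE 0.13, limma adjusted p = 0.0486), and Elovl6 was at 21.4, 29.4, 20.5 and 23.9 against 36.5, 37.0, 39.1 and 33.6 CPM (log2 fold change 0.61, SE 0.14, limma adjusted p = 0.0298). These also did not overlap. All 4 calls stand near the threshold: leaving out LPS_scramble replicate 1, 3 or 4 or LPS_miR-29a replicate 1 or 3 left 0 members called, and leaving out LPS_scramble replicate 2 left 1, with limma adjusted p up to 0.134 for Stard4.

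Genes that passed only with the block included Cyp51, Acat2 and Sc5d, higher at 0.45, 0.52 and 0.45 on the log2 scale (limma adjusted p = 0.0734, 0.0736 and 0.11 without the block; 0.01, 0.0107 and 0.0321 with it). Lower with the block were Srebf1, Srebf2, Scd2, Abca1, Lpin1 and Pmvk. Scd2 was at 1136, 1230, 1337 and 1334 CPM in LPS_scramble and 954, 802, 1023 and 626 CPM in LPS_miR-29a, which did not overlap (log2 fold change -0.59, limma adjusted p = 0.0576; 0.00512 with the block). Abca1 was at 299, 285, 339 and 333 against 232, 205, 281 and 226 CPM, again without overlap (log2 fold change -0.42, limma adjusted p = 0.0798; 0.00538 with the block). Srebf1 and Srebf2 were at -0.62 and -0.41 (limma adjusted p = 0.095 and 0.105; 0.00271 and 0.00755 with the block), so both SREBP transcripts were lower in the blocked fit. Of the 16 mevalonate and sterol genes 5 were higher in that fit (Idi1, Acat2, Msmo1, Cyp51 and Sc5d), Pmvk was lower, and the other 10 did not pass, with log2 fold changes from -0.29 for Mvk to 0.47 for Hsd17b7. The groups of 11 of the 34 members did not overlap in this comparison, beside 13% of all genes tested. Outside the members, the carnitine transferase Cpt1a, the gate of fatty acid oxidation, rose from 14.1 ± 5.28 to 31.2 ± 3.96 CPM (SD, n = 4; limma adjusted p = 0.00817), and Dgat1 and Me1 rose (limma adjusted p = 0.0118 and 0.0309).

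Tmem97 was at 50.2, 65.4, 55.2 and 55.7 CPM in LPS_scramble and at 36.9, 39.9, 29.9 and 35.9 CPM in LPS_miR-146a, with no overlap (log2 fold change -0.68, SE 0.13, limma adjusted p = 0.0253). Under vehicle it was at 46.6, 36.1, 42.3 and 45.6 against 35.6, 19.7, 22.8 and 31.1 CPM, again with no overlap and a log2 fold change of -0.77 (SE 0.20), which did not pass in limma (adjusted p = 0.0571). The test of the difference between the 2 conditions gave 0.09 (SE 0.23, limma adjusted p = 0.899). The call under LPS was lost in 6 of 8 fits without 1 library, among them each fit without an LPS_scramble library and those without LPS_miR-146a replicate 1 or 3 (limma adjusted p up to 0.0995). Other members with miR-146a under LPS, not called without the replicate block, were Lpin1 at 0.54 (limma adjusted p = 0.0957), Mylip at 0.40 and Abca1 at 0.31 on the log2 scale. The values of Mylip and Abca1 did not overlap those with scramble. Outside the members Acsl5 was lower with miR-146a and miR-7a under LPS (-0.64 and -0.49 on the log2 scale, limma adjusted p = 0.0247 and 0.0361), Dgat2 was lower with miR-7a (-0.76, limma adjusted p = 0.0233), and Insig2, a relative of Insig1, was higher with miR-7a (0.64, limma adjusted p = 0.0271).

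With miR-7a under LPS the 5 members called with the block were Scd2, Nr1h2, Pmvk, Mvd and Mylip. Scd2 was at 860, 906, 974 and 1004 CPM against 1136, 1230, 1337 and 1334 CPM in scramble cells, with no overlap (log2 fold change -0.42, limma adjusted p = 0.0675; 0.00318 with the block). Nr1h2 was at 18.5, 34.2, 35.2 and 37.2 against 39.9, 48.6, 55.9 and 49.7 CPM, with no overlap (log2 fold change -0.67, limma adjusted p = 0.0944; 0.00364 with the block). Mylip was at 33.5, 31.2, 34 and 43.9 against 43.8, 45.8, 48 and 48.4 CPM, where replicate 4 just reached the lowest scramble library (log2 fold change -0.39, limma adjusted p = 0.141; 0.0263 with the block). Under vehicle Nr1h2 and Mylip with miR-7a differed from scramble by -0.68 and -0.79 on the log2 scale without overlap, and neither passed (limma adjusted p = 0.253 and 0.167).

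**Figure D4:**
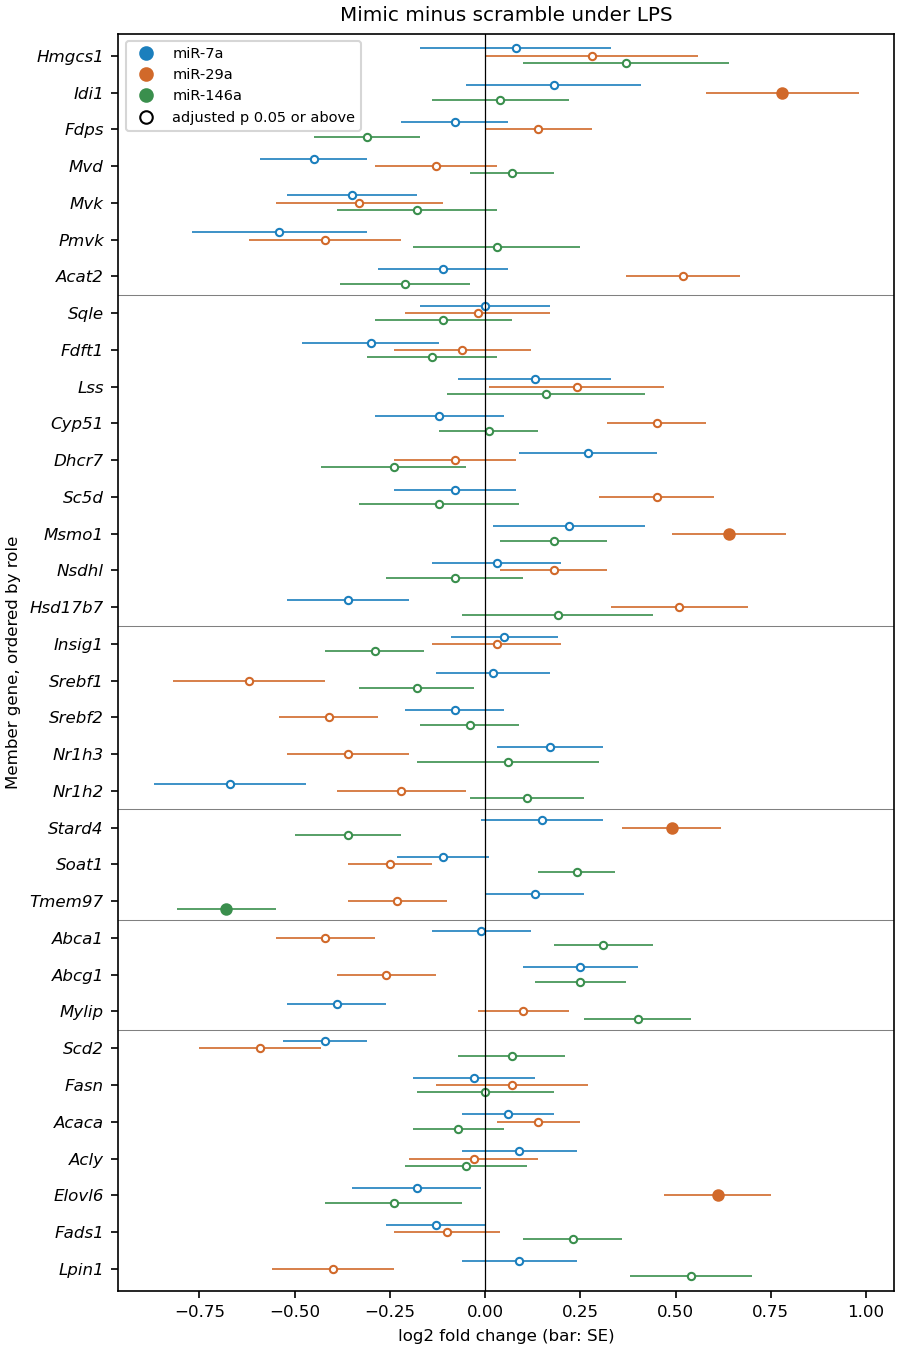
log2 fold change of each mimic over scramble under LPS (horizontal axis, bars are SE) for 34 members; filled points have a limma adjusted p under 0.05 over all genes tested. The filled points are Idi1, Msmo1, Stard4 and Elovl6 with miR-29a, between 0.49 and 0.78, and Tmem97 with miR-146a at -0.68; the mimics share the scramble libraries.

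Under vehicle 0 of 34 members were called with any mimic in limma: 0.413% of 11145 genes were called with miR-7a, 0.0171% of 11716 with miR-29a and 2.40% of 11852 with miR-146a. At an unadjusted p under 0.05 there were 4, 1 and 7 members. edgeR called 0 with each, and DESeq2 called 1, 0 and 3. The largest differences were Idi1 with miR-146a (log2 fold change 0.98, SE 0.40, limma adjusted p = 0.153), at 59.9, 45.9, 32.1 and 23.9 against 42.0, 8.96, 18.7 and 12.6 CPM, and Mylip with miR-7a. For Idi1 the 2 groups overlapped, replicate 1 was the highest of each, and the miR-146a library was the higher in 4 of 4 same-numbered pairs. Lpl, a lipoprotein lipase outside the members, rose with miR-146a from 1495 ± 265 to 2473 ± 209 CPM (SD, n = 4; limma adjusted p = 0.0463).

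No interaction of a mimic with LPS passed among 34 members tested for each of the 3 mimics (0.179% of 12288, 0.0241% of 12441 and 0.00801% of 12486 genes called with miR-7a, miR-29a and miR-146a in limma). At an unadjusted p under 0.05 there were 3, 1 and 0 members, and edgeR and DESeq2 called 0 with each mimic. With miR-7a the SE of these differences ran from 0.15 to 0.60 on the log2 scale over the members, so small differences were not detectable with 4 libraries a group.

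The level of many sterol genes also moved with the replicate number. This was noticed in the values and then tested, by an F test of the replicate number beside the 8 groups over all 32 libraries. Of 34 members 24 were called, beside 44.4% of 12457 genes. By role, 5 of 7 mevalonate genes, 8 of 9 sterol genes, 4 of 5 regulators and 5 of 7 tested fatty acid genes were called. Of the transport and storage genes 1 of 3 was called, as was 1 of 3 among Abca1, Abcg1 and Mylip. Hmgcs1, Fdps, Cyp51, Msmo1 and Nsdhl were highest in replicate 1 in 8 of 8 groups, and Insig1 and Idi1 in 7 of 8. Replicate 1 exceeded the mean of the other numbers by 0.86 on the log2 scale for Idi1, 0.83 for Hmgcs1 and 0.78 for Msmo1. The F test, which asks whether any of the 4 numbers differ and not whether replicate 1 does, gave limma adjusted p of 1.21e-05, 4.4e-07 and 2.63e-07.

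The pattern was not shared by all members. Acly was highest in replicate 2 in 7 groups, Srebf1 and Srebf2 in 6 and Fasn in 5, while Acat2 was lowest in replicate 4 and Fdft1 lowest in replicate 2 in 8 of 8. Scd2, Mylip, Soat1, Tmem97, Nr1h3, Abcg1, Fads1, Mvk, Mvd and Hsd17b7 did not pass the F test. Summed over the 16 mevalonate and sterol genes, replicate 1 was the highest library in 7 of the 8 groups: in VEH_scramble the 4 libraries were at 991, 642, 729 and 596 CPM, and in LPS_scramble, the exception, at 684, 727, 606 and 633 CPM. Other measures also moved with the number: replicate 1 libraries had a median total of 5475524 counts against 7471107, 9542358 and 8244742 for numbers 2, 3 and 4, and a median mitochondrial share of 2.78% against 1.56%, 2.52% and 2.34%. The part of depth or of the mitochondrial share in the sterol pattern was not tested, and the sources do not say that a number marks 1 experiment across the groups.

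**Figure D5:**
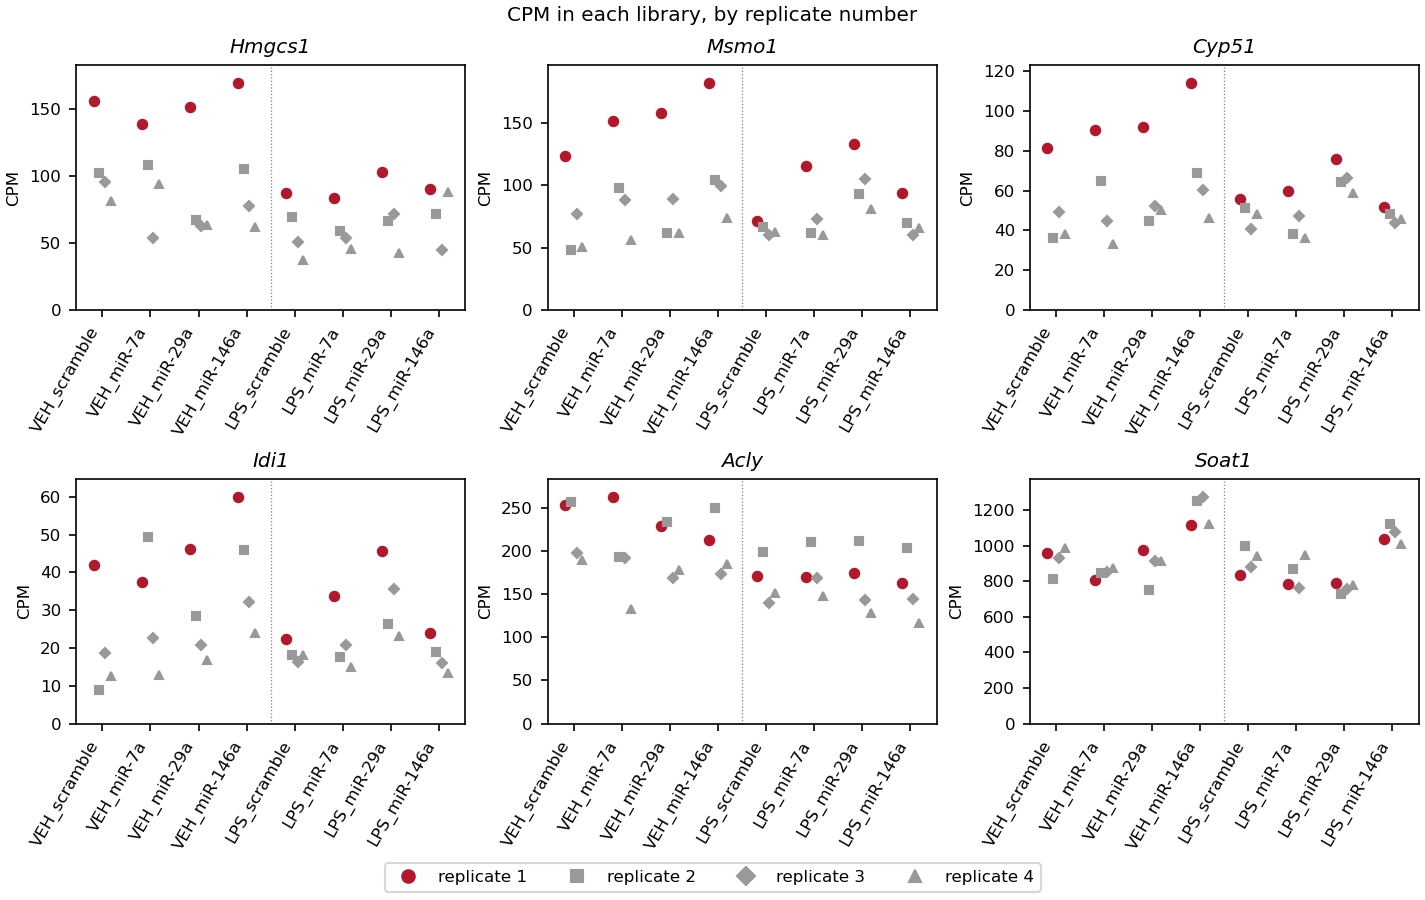
CPM (vertical axis, linear, from 0) of 6 members in each library of the 8 groups, with replicate 1 as red circles and replicates 2, 3 and 4 as grey squares, diamonds and triangles. Replicate 1 is highest in 8 of 8 groups for Hmgcs1, Msmo1 and Cyp51 and in 7 for Idi1; Acly is highest in replicate 2 in 7 groups, and Soat1 shows no such pattern.

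Matches to the seeds were counted in the 3' untranslated region of 1 coding transcript per gene (GENCODE vM21, GRCm38). A miR-7a match was found in 9 of 36 members (25%, beside 13.9% of 10880 genes tested with such a region), a miR-29a match in 8 (22.2% beside 15.6%) and a miR-146a match in 5 (13.9% beside 12.4%). Some windows are printed with the match in capitals, as transcript sense DNA, chosen after the values were seen. They are the miR-7a matches in members lower with miR-7a under LPS in the blocked fit, the miR-29a matches in members called in an unblocked comparison of LPS with vehicle, and the miR-146a match of Hmgcs1, whose window overlaps that of its miR-29a match.
Scd2, miR-7a, chr19:44305349-44305375, plus strand: cgaggggacaGTCTTCCtgggctagtt
Nr1h2, miR-7a, chr7:44549810-44549836, minus strand: cacccattgaGTCTTCCaagagtggtg
Mylip, miR-7a, chr13:45411572-45411598, plus strand: ccccctcggtGTCTTCCagaggtaggg
Tmem97, miR-29a, chr11:78542045-78542071, minus strand: tgggttattcTGGTGCTggttctatga
Lpin1, miR-29a, chr12:16535677-16535703, minus strand: ggtggatccgTGGTGCTggctagacag
Hmgcs1, miR-29a, chr13:119707572-119707598, plus strand: ggatgattttTGGTGCTgaacaatgac
Hmgcs1, miR-146a, chr13:119707554-119707580, plus strand: ttcactagcaAGTTCTCtggatgattt

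The other members with a miR-7a match were Lss, Hsd17b7, Srebf1, Fads1, Abca1 and Soat1, those with a miR-29a match Insig1, Fdft1, Cyp51, Scd1 and Soat1, and those with a miR-146a match Lss, Stard4, Fads2 and Soat1. Of the 4 members called with miR-29a under LPS (Elovl6, Msmo1, Stard4 and Idi1) none held its match, and Tmem97, called with miR-146a, held none for that mimic. Of the 5 members lower with miR-7a under LPS in the blocked fit, Scd2, Nr1h2 and Mylip held a miR-7a match and Pmvk and Mvd did not. Of the 13 members called with miR-29a under LPS in the blocked fit, Cyp51, which was higher, and Lpin1, which was lower, held a miR-29a match. The others of the 13 did not. A match is a description of letters and not a shown site.

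RefSeq promoters (250 bases before to 50 after the start, GRCm38.p6) were at hand for 28 of the 36 members and were searched on both strands for motifs known from sterol-regulated genes; none of the motifs contains another. CCAAT, the NF-Y box, was in 20 of 28 (71.4%, beside 41.1% of 27025 promoters), GGGCGG, the GC box, in 21 (75%, beside 38.2%) and CANNTG, the E-box, in 20 (71.4%, beside 75%). The 27025 promoters include those of genes too low to be tested here, unlike the background of the seed matches, so they are not matched to the members for expression. The sterol regulatory element TCACNCCAC was in 1 of 28, Hmgcs1 (3.57%, beside 1.44%). Its window is printed, with the element in capitals, because Hmgcs1 is the 1 member with such a match; its first base lies 137 bases before the start.
Hmgcs1, chr13:119690204-119690232, plus strand: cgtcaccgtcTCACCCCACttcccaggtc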

How the data were processed

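RNA was sequenced from 32 BV-2 libraries after ribosomal RNA depletion. The authors quantified genes on GRCm38 and deposited estimated counts per gene whose decimal marks had been lost (of 109458 values of 20000 or more, 0.0155% end in 0); the nf-core rnaseq workflow is named for these libraries, its aligner is not given in the sources used here, and the submitters' processing notes name limma and edgeR. The marks were put back with a model that weighs 0 to 3 lost decimals from the digits and from the gene's level in the other libraries. Of 590874 values above 0, 28.4% were given decimals and 1.10% stayed uncertain (posterior under 0.9). On simulated data 99.96% of certain values were restored. In a simulated LPS comparison with scramble, 32.4%, 96.8% and 98.6% of genes changed 1.5-, 2- and 3-fold were called (12666 genes, 4 of 12466 unchanged genes called). The simulation gave all genes the same spread between replicates beside counting error, and no effect of the replicate number. It changed only genes well counted in every library compared, so these shares are not detection rates for the members.

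Pairs of groups were compared by limma-voom (limma 3.58.1, edgeR 4.0.16, R 4.3.3) with filterByExpr, TMM and Benjamini-Hochberg adjustment over all genes tested, called at adjusted p under 0.05; genes with an uncertain value were left out. Only the 8 libraries compared (16 for an interaction) entered a fit. CPM values use TMM over all 32 libraries, so their ratios differ slightly from fitted fold changes. DESeq2 1.42.0, edgeR, other scalings and filters, and leaving out libraries were alternatives. The result of 1 gene of the sterol list is not reported here. The members, lists and tests were chosen with earlier results of these data known. Per-library values are given for Hmgcs1, Sqle, Insig1, Srebf1, Srebf2, Fasn, Scd1, Scd2, Abca1, Abcg1 and for up to 4 further called members per comparison, in the groups where a comparison uses them, and other lists by called genes, at most 3 per list and comparison; the values of Tmem97 and Idi1 under vehicle and of Nr1h2 and Mylip with miR-7a, and the genes named from blocked fits and by replicate number, were chosen after their values were seen.

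Replicate numbers 1 to 4 recur in all groups. Same-numbered libraries deviated together in every pair (correlation of deviations from the group mean over 0.1) for LPS against vehicle with scramble (0.126 to 0.218) and miR-29a (0.146 to 0.212) and for miR-7a and miR-29a against scramble under LPS (0.185 to 0.376 and 0.215 to 0.384), and blocked values are given there. The pairing comes from the data: the methods of the study treat replicates as separate experiments, without saying that a number marks the same one in every group.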

Additional observations from a re-analysis of the deposited data

Results flagged for a closer look

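In 168 sets of 4 libraries (the 19 named members with Scd1 left out, which leaves 18, and 3 measures of each library, namely total, structural RNA share and mitochondrial share, in each of 8 groups) the highest or lowest library stood far from the other 3 in 13, where chance gives about 1 in 20.

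Among the members, Hmgcs1 in VEH_miR-29a replicate 1 was at 151 CPM, with the others at 62.9 to 66.7. Sqle in replicate 1 was at 193 CPM in VEH_miR-7a (others 106 to 118) and at 155 CPM in VEH_miR-29a (others 102 to 110). Dhcr7 in replicate 2 was at 42 CPM in VEH_miR-146a (others 33.2 to 34.2) and at 29.6 CPM in LPS_miR-29a (others 20.2 to 21.4). Srebf1 in VEH_scramble replicate 2 was at 167 CPM (others 93.7 to 104), and Srebf2 in LPS_miR-29a replicate 2 at 213 CPM (others 148 to 151). Scd2 in VEH_miR-29a replicate 4 was at 1408 CPM (others 1238 to 1264). Lpin1 was at 111 CPM in VEH_miR-29a replicate 1 (others 94.1 to 95.5) and at 137 CPM in VEH_miR-146a replicate 2 (others 122 to 124). Nr1h2 in LPS_miR-7a replicate 1 was low, at 18.5 CPM (others 34.2 to 37.2).

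Of the library measures, structural RNA held 4.2% of the counts in VEH_miR-7a replicate 1 against 33.4% to 37.3% in the others of its group. Over values restored with certainty these shares were 3.93% and 32.1% to 36.3%; both rest on the modelled restoration, which a copy of the table with its decimal marks would settle. Among the same measures, mitochondrial genes held 1.71% in LPS_miR-29a replicate 2 against 3.54% to 3.9%.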

How the results depend on the processing

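Of 434 values of the 24 called member results under alternatives, 318 stayed past the threshold, 116 did not, and 0 changed direction. Counts of members called that moved by more than 1.5 times were as follows, and the cause was not tested. For LPS against vehicle with miR-7a (2 called) there were 4 with the replicate block, 4 in DESeq2, 6 with no filter on low counts, 1 without the first-numbered library of every group and 0 without the 3 libraries rich in structural RNA; the last 2 settings were chosen after seeing the data. With miR-29a (8) there were 16 with the block, 5 with no filter and 4 without the first-numbered libraries. With miR-146a (3) there were 10 with the block, Idi1 and Acly among them, 5 in DESeq2, 5 at a minimum posterior of 0.99 and 1 without the first-numbered libraries. Against scramble under vehicle, miR-7a (0) had 1 in DESeq2 and 1 with all 32 libraries in 1 fit, and miR-146a (0) had 3 with the block (Idi1, Msmo1 and Tmem97), 3 in DESeq2 and 2 in the fit of all libraries. Under LPS, miR-7a (0) had 5 with the block, 3 in DESeq2, 1 with no filter and 1 in the fit of all libraries. There miR-29a (4) had 13 with the block, 9 in DESeq2, 2 in the fit of all libraries and 0 without the first-numbered libraries. Also under LPS, miR-146a (1) had 9 with the block, Lpin1, Mylip and Abca1 among them. It had 0 with no filter, 2 in the fit of all libraries and 0 without the first-numbered libraries. For the 6 comparisons whose same-numbered libraries did not all deviate together (lowest correlation -0.0508 to 0.0853) the block is given only here, since the sources call replicates separate experiments without saying that a number marks the same one in each group; in 2 of these comparisons, LPS against vehicle with miR-146a and miR-29a against scramble under vehicle, each of the 4 numbers correlated best with itself.

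Leaving out 1 library gave 1 to 7 members for LPS against vehicle with scramble (3, 3 and 1 without LPS_scramble replicate 1, 3 and 4), 0 to 4 with miR-7a (0 and 1 without VEH_miR-7a replicate 1 and 2, 4 and 1 without LPS_miR-7a replicate 1 and 2), 4 to 9 with miR-29a (4 and 5 without LPS_miR-29a replicate 1 and 3) and 1 to 3 with miR-146a (1 without VEH_miR-146a replicate 1 or 2 or LPS_miR-146a replicate 1 or 4). Against scramble it gave 0 to 2 with miR-146a under vehicle (2 without VEH_scramble replicate 1), 0 to 5 with miR-29a under LPS and 0 to 1 with miR-146a under LPS. The interactions had 0 in every setting. Depth limits the low members most: in the shallowest library, VEH_miR-7a replicate 4, 3 counts equal 2.62 CPM.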
